A study of Mus musculus with 16 samples.

Results

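A set of 10 genes was followed here because they mark or control the spermatogonia, the germ cells at the base of the seminiferous tubule from which all sperm descend. They were listed by name, with earlier results of these data known, and are 10 of the 24214 mouse genes that could be placed on the peak lists. Zbtb16, Gfra1, Nanos2, Id4, Sall4 and Lin28a are known from undifferentiated spermatogonia, the pool that holds the stem cells. Nanos3, Sohlh1, Sohlh2 and Kit are known from cells on their way into differentiation. The measurement was H3K4me3, trimethylation of lysine 4 on histone H3, mapped by ChIP-seq.

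The H3K4me3 samples were whole testis of mice aged 13 days post-partum, per the labels, from 3 lines. B6 was the strain C57BL/6JOlaHsd without a transgene. B6-TgWT was C57BL/6J-Tg(RP23-159N6*)43Bdm, and B6-TgYF was C57BL/6JRj-Tg(RP23-159N6*)23Bdm. Both carry a bacterial artificial chromosome with Prdm9, the meiotic histone methyltransferase that sets recombination sites, in a wild-type form in B6-TgWT and in a form changed in the methyltransferase domain in B6-TgYF. Their peak lists are both named with cast, which marks the castaneus type of Prdm9, so the transgenes were not copies of the resident B6 type. No Prdm9 deletion is named for any of the 3, so the resident gene is taken as present in all. The lines also differ in their C57BL/6 substrain, and each transgenic line is a single named line. Each line had 2 H3K4me3 libraries and 1 input, and the authors deposited 1 peak list per line, so no value below has a replicate error and no test between lines was possible. The other 7 of the 16 samples measured DMC1 and were not analysed here.

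H3K4me3 marks the start sites of active genes and of many genes held ready for activation, mostly where CpG dinucleotides are dense. In spermatogonia, GDNF from Sertoli cells signals through GFRA1 and sustains the stem cell pool, while retinoic acid and the SOHLH1 and SOHLH2 factors drive the switch to KIT-positive differentiating cells. Whole testis mixes these cells with meiotic and somatic cells, so fewer cells with the mark and less mark per cell cannot be told apart.

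Counting chromosomes 1 to 19 and X, the B6 list held 51170 peaks, that of B6-TgWT 47648 and that of B6-TgYF 42496. The read depth behind them is unknown. For B6, the deposited list is named with a 12, and the sample labels give 13 days. A width is the length of 1 peak. The fold enrichment is the authors' ratio of signal over background at the peak, and was read only as a percentile among the peaks of its own list, where 100 is the strongest. A difference in fold enrichment or in rank between separate lists shows no change by itself. Peak coordinates are mm9. The gene models at hand were on GRCm38.p6 and were shifted to mm9. Shifts fitted to the B6 and to the B6-TgYF list, which share most promoter peaks and so are not independent, differed by 3 to 232 bp for a member. Shifts fitted over wider stretches differed by far more for Kit and Nanos2. For Kit the shift was 396137 bp as used, 391384 bp over 10 Mb on either side and 429097 bp over 5 Mb, and for Nanos2 it was 585390, 783812 and 585395 bp.

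The base composition of the promoters is shown first, because H3K4me3 tends to follow CpG density and a pair of members had no peak at their start site. The 5 sequences below are the 250 bases upstream of the start, 5′ to 3′ on the coding strand, from RefSeq on GRCm38.p6. Capitals mark CpG dinucleotides. They cover both members without a promoter peak, Nanos2 at chr7:18987274-18987523 (plus strand) and Nanos3 at chr8:84176553-84176802 (minus strand), and 3 members with one. Those are Id4 at chr13:48260866-48261115 (plus strand), Kit at chr5:75574737-75574986 (plus strand) and Sohlh1 at chr2:25847249-25847498 (minus strand). The promoters of Zbtb16 and Sall4 were not analysed here.

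Nanos2: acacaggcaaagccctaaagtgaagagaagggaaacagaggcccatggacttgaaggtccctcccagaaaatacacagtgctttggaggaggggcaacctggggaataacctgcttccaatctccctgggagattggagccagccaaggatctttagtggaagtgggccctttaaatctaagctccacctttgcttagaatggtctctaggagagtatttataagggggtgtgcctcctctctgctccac

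Nanos3: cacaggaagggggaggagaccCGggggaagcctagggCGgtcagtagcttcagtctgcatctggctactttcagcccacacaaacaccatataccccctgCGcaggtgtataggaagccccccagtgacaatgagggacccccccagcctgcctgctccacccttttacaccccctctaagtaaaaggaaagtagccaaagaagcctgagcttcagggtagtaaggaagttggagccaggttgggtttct

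Id4: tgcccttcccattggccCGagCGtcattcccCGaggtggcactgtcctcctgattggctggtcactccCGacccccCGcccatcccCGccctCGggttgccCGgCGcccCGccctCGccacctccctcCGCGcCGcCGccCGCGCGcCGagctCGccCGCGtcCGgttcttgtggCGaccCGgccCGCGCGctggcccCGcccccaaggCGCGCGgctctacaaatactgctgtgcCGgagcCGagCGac

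Kit: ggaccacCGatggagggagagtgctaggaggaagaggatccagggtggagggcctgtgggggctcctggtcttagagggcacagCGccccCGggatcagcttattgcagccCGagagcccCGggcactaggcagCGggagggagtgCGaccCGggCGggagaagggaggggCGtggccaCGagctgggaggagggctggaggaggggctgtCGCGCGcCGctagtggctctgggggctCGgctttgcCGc

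Sohlh1: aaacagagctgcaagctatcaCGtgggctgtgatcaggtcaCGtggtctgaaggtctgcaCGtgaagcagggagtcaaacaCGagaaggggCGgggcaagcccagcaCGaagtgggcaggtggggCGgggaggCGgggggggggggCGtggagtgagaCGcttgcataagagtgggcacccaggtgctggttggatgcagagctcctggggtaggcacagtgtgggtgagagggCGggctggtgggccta

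Nanos2 had 0 CpG in these 250 bases and Nanos3 had 3, against a median of 12 over 15345 protein-coding promoters. Id4 lay at the other end of the range with 35, followed by Kit with 17, Sohlh2 with 14, Sohlh1 with 11, Gfra1 with 10 and Lin28a with 7. As a ratio of observed over expected CpG, the values were 0 for Nanos2 and 0.151 for Nanos3, and 0.336 for Lin28a, 0.513 for Sohlh1, 0.542 for Sohlh2, 0.583 for Gfra1, 0.601 for Kit and 1.05 for Id4. Both genes without a promoter peak therefore had the lowest ratios of the 8 members with a sequence. Across all protein-coding genes, 28.4% of those with a ratio under 0.2 had a B6 promoter peak, against 58.5% between 0.2 and 0.4, 90.7% between 0.4 and 0.6, and 99% at 0.8 or more. Nanos2 and Nanos3 fell in the bin where most genes lacked a peak. Whether their CpG content bears on the missing peaks was not tested. The shifts to mm9 were fitted to bring the start sites of these genes near peaks, with the members left out. The shares of genes with a peak may therefore be raised by the fit.

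Short motifs were counted on both strands of the same 250 bases. Sohlh1 held 5 matches to CANNTG, the E-box read by basic helix-loop-helix factors, and 3 of them were CACGTG, a form of it. Any CANNTG was in 61.2% of the protein-coding promoters and any CACGTG in 7.15%. Nanos2 was the only one of the 8 with TATAAA, which 10.2% of promoters held, and it had 2 CCAAT. Id4 had 5 GGGCGG, the GC box, and 2 CCAAT, and these motifs were in 47.1% and 36.5% of promoters. These are letter matches and say nothing on binding.

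**Figure D1:**
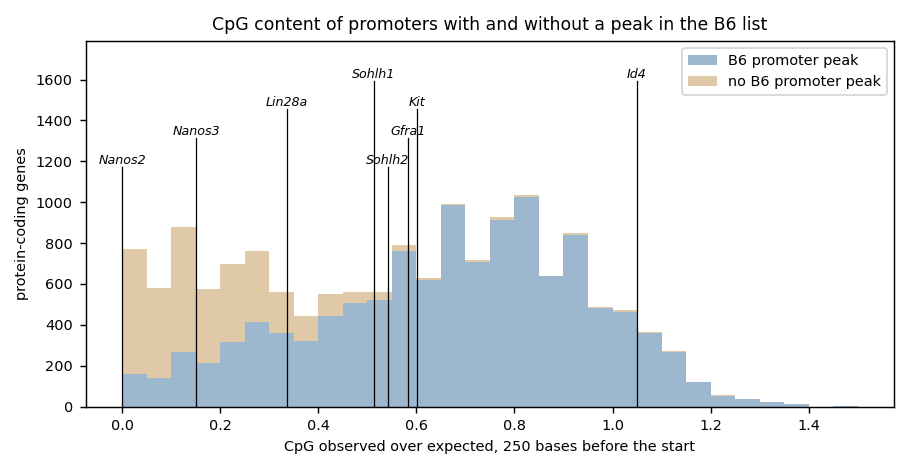
Observed over expected CpG in the 250 bases upstream of the start site, as a histogram of protein-coding genes with and without a B6 promoter peak. Lines mark the members with a promoter sequence. Nanos2 at 0 and Nanos3 at 0.151 lie under 0.2, where 28.4% of all protein-coding genes had a B6 promoter peak. Id4 at 1.05 lies in the range of 0.8 or more, where 99% had one.

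A gene was given a promoter peak when its start site lay within 1 kb of a peak. In each of the 3 lists, 8 of 10 members had one, or 80% (Wilson 95% interval 49% to 94.3%, counting error only). They were the same 8 genes in every list, and Nanos2 and Nanos3 had none. Over all placed protein-coding genes the shares for B6, B6-TgWT and B6-TgYF were 78.0%, 76.6% and 76.9%, and over all placed genes 62.9%, 61.0% and 61.3%. The members' share was near that of protein-coding genes. The shifts were fitted on the start sites of the other genes and not on those of the members. These background shares may therefore be raised by the fit. In all 8 genes the start site lay inside the peak, and the members outside the 1 kb limit were well beyond it, at 2497 bp or more for Nanos2 and 2256 bp or more for Nanos3.

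Among the genes of undifferentiated cells, Gfra1, the co-receptor for GDNF, had the widest promoter peak of the members. It measured 4179 bp in B6 (chr19:58527443-58531621), 4099 bp in B6-TgWT and 4001 bp in B6-TgYF, at width percentiles of 98.9, 99.3 and 98.8. Its fold enrichment was 14.95, 6.05 and 15.67, at percentiles of 71.1, 43.1 and 71.4. The Gfra1 peak thus kept its width in B6-TgWT while its place by fold enrichment in that list was the lowest of any member.

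Zbtb16 encodes PLZF, a zinc finger repressor needed for self-renewal. Its promoter peak was 3598 bp in B6 (chr9:48642257-48645854), 2180 bp in B6-TgWT and 2214 bp in B6-TgYF. In both transgenic lists the B6 peak corresponded to 2 peaks, separated by a gap of 54 bp in B6-TgWT and 51 bp in B6-TgYF that lay 82 to 138 bp upstream of the placed start. With the pieces joined, Zbtb16 spanned 3515 bp and 3540 bp, or 0.977 and 0.984 of the B6 width. The narrower peak of Zbtb16 was therefore the downstream piece of a region of nearly the same extent. The fold enrichment over the start was 16.47, 19.78 and 25.38, at percentiles of 73.3, 84.7 and 87.1.

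Id4, an inhibitor of DNA binding that marks the stem-like fraction, had peaks of 3163 bp in B6 (chr13:48355623-48358785), 3147 bp in B6-TgWT and 3190 bp in B6-TgYF. Its fold enrichment of 30.15, 22.65 and 26.70 was the highest of the members in every list, at percentiles of 91.7, 89 and 89.3. Sall4, a zinc finger factor of pluripotent and germ cells, had peaks of 3264 bp (chr2:168590262-168593525), 2999 bp and 3262 bp. Sall4 stood at fold percentiles of 83.3, 77 and 76.4. Lin28a, an RNA-binding protein that blocks let-7 maturation, had peaks of 2543 bp (chr4:133572687-133575229), 2345 bp and 2439 bp, at fold percentiles of 75.8, 71 and 64. Lin28a also had a second, separate peak just upstream in all 3 lists, of 1016, 1006 and 1006 bp with fold enrichments of 5.89, 4.41 and 4.95.

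Sohlh1 and Sohlh2 encode germ-cell helix-loop-helix factors that work together at the onset of differentiation, and their promoter peaks differed. The Sohlh2 peak measured 2289 bp in B6 (chr3:54985156-54987444), 2215 bp in B6-TgWT and 2212 bp in B6-TgYF. Sohlh1 had the narrowest peak of the 8 members in every list, at 1617 bp (chr2:25702009-25703625), 728 bp and 923 bp. Like Zbtb16, Sohlh1 was split upstream of its start in both transgenic lists, by gaps of 70 bp and 63 bp. They lay 216 to 285 bp upstream of the placed start. The Sohlh1 shift was -144603 bp as used and -144492 bp over 5 Mb or 10 Mb on either side. These shifts differ by more than the width of the gaps, so the distance is approximate. Joined, the pieces spanned 1394 bp in B6-TgWT and 1728 bp in B6-TgYF, or 0.862 and 1.07 of the B6 width. Sohlh1 was at fold percentiles of 69.9, 62.1 and 65.3, and Sohlh2 at 78.6, 75.2 and 69.3.

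Kit encodes the receptor for stem cell factor, the surface mark of differentiating spermatogonia. Its promoter peak was 2591 bp in B6 (chr5:75970240-75972830), 2363 bp in B6-TgWT and 2409 bp in B6-TgYF, with fold enrichments of 28.46, 18.82 and 22.24. The fold percentiles of 89.6, 83.2 and 82 put Kit next to Id4 among the members in B6. All lists also held a small peak inside Kit, about 67 kb after the start, of 625, 627 and 507 bp with fold enrichments of 7.11, 4.13 and 4.80. Kit lay between 2 chromosome blocks with different shifts. The left one was used, which the fit to the B6-TgYF list gave directly, and with the right one Kit had no promoter peak in any list.

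**Figure D2:**
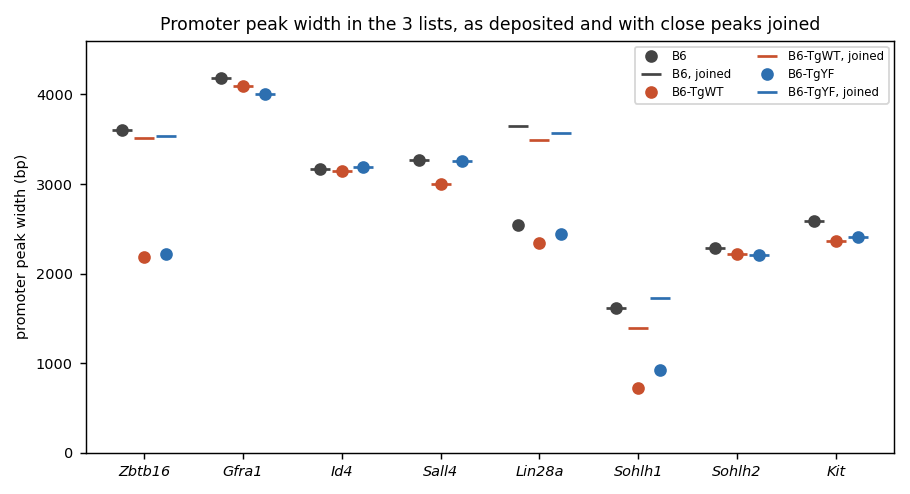
Width in base pairs of the promoter peak of each member with one, in the B6, B6-TgWT and B6-TgYF lists. Dots show the deposited width, and dashes the width with peaks less than 1 kb apart joined. By deposited width, Gfra1 is the widest in every list, at 4001 to 4179 bp, and Sohlh1 the narrowest, at 728 to 1617 bp.

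Read as a group, the members' promoter peaks were wider than the median protein-coding promoter peak and stood lower by fold percentile. Their median width was 2877 bp in B6, 2354 bp in B6-TgWT and 2424 bp in B6-TgYF, against 2091, 1919 and 1979 bp over the protein-coding genes with a promoter peak. Of 8 members, 6 in B6 were in the upper 10% of their list by width, where 32.5% of the protein-coding promoter peaks were. The counts were 5 in B6-TgWT, against 28.5%, and 4 in B6-TgYF, against 28.0%. Gfra1, Id4, Sall4 and Lin28a were in this upper part in every list, Kit in B6 and B6-TgWT, and Zbtb16 in B6 alone. The promoter peaks of Gfra1, Id4 and Sall4 also lay, in every list, within 1 kb of the start of another gene. These genes were Gm41876, A330033J07Rik and Gm14261 respectively. Whether the second start adds to the width was not tested, and the share of all promoter peaks with such a start was not analysed here. The Kit peak of B6-TgYF, at a percentile of 89.8, stood just under the limit. With 8 genes, the 95% interval of the share runs from 40.9% to 92.9% in B6. It runs from 30.6% to 86.3% in B6-TgWT and from 21.5% to 78.5% in B6-TgYF, where it contains the 28.0% of protein-coding promoter peaks.

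By fold enrichment, few members stood near the top. Only Id4 in B6 was in the upper 10% of its list, making 1 of 8 against 36.3% of protein-coding promoter peaks, and no member was in B6-TgWT, against 35.0%, or in B6-TgYF, against 31.1%. The 95% interval of 1 of 8 runs from 2.24% to 47.1%, and that of 0 of 8 reaches 32.4%. The intervals of B6 and B6-TgYF thus contain the shares of protein-coding promoter peaks, and that of B6-TgWT does not. The members' median fold percentile for B6, B6-TgWT and B6-TgYF was 77.2, 76.1 and 73.9, against 85.8, 85.2 and 83.4 over protein-coding genes. Ranked only among the 14487 genes with a promoter peak in all 3 lists, the members' median was 30.2, 32.1 and 32.4, against 54.2, 54.4 and 54.2 for protein-coding genes.

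**Figure D3:**
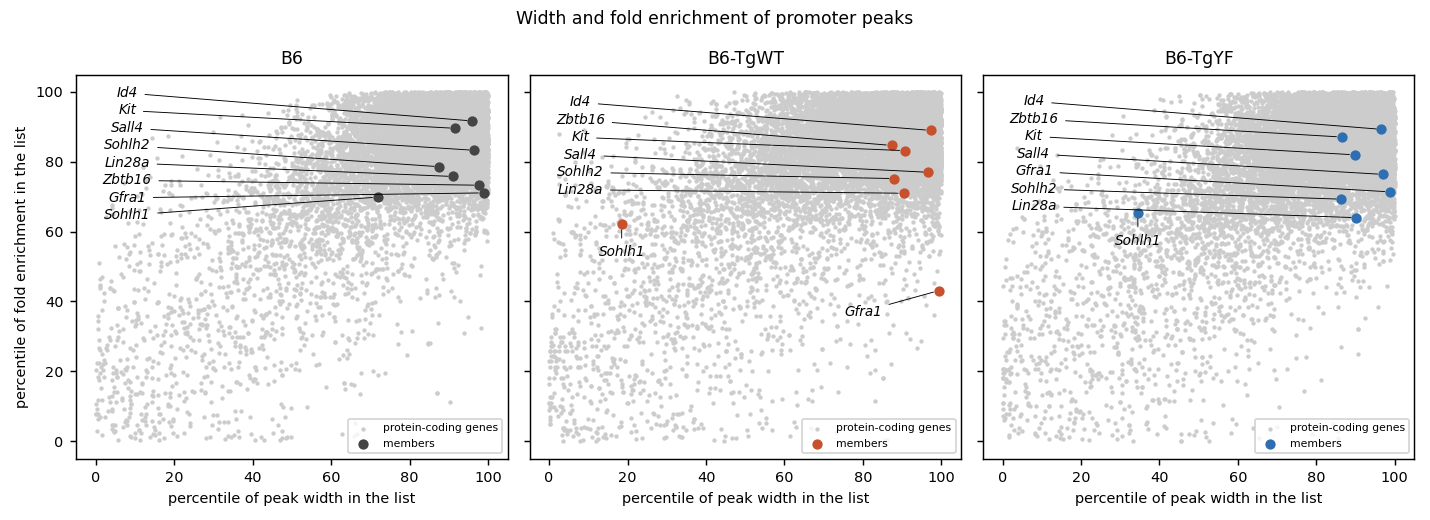
Width percentile against fold percentile of the members' promoter peaks within each list. The members sit high by width, apart from Sohlh1, and spread between percentiles of 43.1 and 91.7 by fold enrichment.

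Widths were then compared gene by gene between lists. Over B6, the width in B6-TgWT was 0.606 for Zbtb16, 0.981 for Gfra1, 0.995 for Id4, 0.919 for Sall4, 0.922 for Lin28a, 0.45 for Sohlh1, 0.968 for Sohlh2 and 0.912 for Kit. Their median of 0.92 lay beside a median of 0.929 over 11670 protein-coding genes. All 8 were narrower than in B6, as were 83.3% of protein-coding genes. In B6-TgYF over B6 the median was 0.958, against 0.959, with 7 of 8 narrower against 75.1% of genes, and Id4 alone not narrower at 1.01. Between the transgenic lists, B6-TgWT over B6-TgYF, the median was 0.983, against 0.975, with 6 of 8 narrower against 64.6%.

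Under 0.8 times the width were Zbtb16 and Sohlh1 in B6-TgWT over B6, 2 of 8 against 15.7% of genes, and again in B6-TgYF over B6, 2 of 8 against 8.82%. In B6-TgWT over B6-TgYF only Sohlh1 passed, at 0.789, so 1 of 8 against 6.99%. None of the 8 was over 25% wider in any pair, where 1.66%, 1.04% and 2.50% of genes were. Both narrower genes were the split ones. With peaks less than 1 kb apart joined, no member was under 0.8 in any pair. Zbtb16 then stood at 0.977 in B6-TgWT over B6 and 0.984 in B6-TgYF over B6. Sohlh1 stood at 0.862 and 1.07, and at 0.807 in B6-TgWT over B6-TgYF. The share of all genes under 0.8 after joining was not analysed here. Of the 8 B6 promoter peaks, 2 overlapped 2 or more peaks of B6-TgWT, against 5.19% of protein-coding genes, 2 did so in B6-TgYF, against 3.63%, and the same 2 did in both, against 2.48%. In the other direction, 0 of 8 promoter peaks of B6-TgWT and 0 of 8 of B6-TgYF overlapped 2 or more B6 peaks, against 0.255% and 0.441%.

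Fold enrichment was compared as the percentile among the genes with a promoter peak in all 3 lists. Zbtb16 stood 30.2 points higher in B6-TgWT than in B6 and 40.6 points higher in B6-TgYF. Gfra1 went from 19.7 in B6 to 8.56 in B6-TgWT and 27.8 in B6-TgYF, Sall4 from 45.5 to 33.7 and 37.1, and Kit from 64.6 to 48.6 and 50.2. Sohlh1 moved least, from 18.3 to 15.9 and 19.7. Over 10 points higher than B6 was 1 of 8 in B6-TgWT, against 25.6% of genes, and 1 of 8 in B6-TgYF, against 24.6%, Zbtb16 each time. Over 10 points lower were Gfra1, Sall4 and Kit in B6-TgWT, 3 of 8 against 26.4%, and Kit in B6-TgYF, 1 of 8 against 26.4%. B6-TgWT minus B6-TgYF gave 0 of 8 higher, against 21.6%, and 2 of 8 lower, Zbtb16 and Gfra1, against 21.0%. Ranked by −log10 q in place of fold, no lower difference passed 10 points. Zbtb16 still stood 11.7 points higher in B6-TgWT than in B6, 1 of 8 against 14.8% of genes, and 19 points higher in B6-TgYF, 1 of 8 against 14.2%. In B6-TgWT the lower ones became −6.13 for Gfra1, −2.87 for Kit and, with the sign turned, 2.19 for Sall4, so 0 of 8 against 14.9%. In B6-TgYF Kit became −5.11, so 0 of 8 against 14.8%. Between the transgenic lists Zbtb16 became −7.27 and Gfra1 −8.9, so 0 of 8 were lower, against 11.3%, and 0 of 8 higher, against 11.2%. These comparisons share lists, so they are not independent of each other.

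The region from 5 kb before each gene to its end was then searched for other peaks. The 10 regions covered 612.6 kb and held 15 peaks of B6, 19 of the B6-TgWT list and 15 of the B6-TgYF list. A peak that no B6 peak touched by even 1 bp was counted as absent from B6, although some mark may have been there. Of the 19 peaks of B6-TgWT, 5 were absent from B6, against 16.7% of its peaks in the regions of all protein-coding genes. Of the 15 of B6-TgYF, 1 was, against 0.712%. With 2 kb in place of 5 kb before the gene the counts were 2 and 0, and when absence meant no B6 summit within 500 bp, B6-TgYF had 3. Joining peaks less than 1 kb apart gave 4 of 15 in B6-TgWT, as the 2 Nanos3 peaks merged, and 1 of 12 in B6-TgYF. Genome-wide, B6 lacked 9126 of the 47648 peaks of B6-TgWT and 530 of the 42496 of B6-TgYF. These peaks lay in 3 of 10 regions in B6-TgWT, against 18.2% of protein-coding genes, and in 1 of 10 in B6-TgYF, against 0.997%. Long genes carry such peaks more often, with 67.8% in B6-TgWT and 4.97% in B6-TgYF for genes of 150 kb or more.

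Gfra1, of 220.4 kb, held 2 of these B6-TgWT peaks, both inside the gene. One at chr19:58320670-58322189 was 1520 bp with a fold enrichment of 6.66, about 208 kb after the start. Another at chr19:58438047-58440514 was 2468 bp with a fold enrichment of 8.74, about 90.5 kb after it. The peak that all lists shared inside Gfra1, 96.3 kb after the start, had fold enrichments of 8.17, 4.45 and 9.75. The 3 peaks that B6 alone held in these regions were small, at 451 bp and 933 bp in Zbtb16 and 499 bp in Gfra1.

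Upstream of Sohlh1, B6-TgWT had a peak of 2342 bp at chr2:25704772-25707113, between 2.1 and 4.5 kb before the start, with a fold enrichment of 6.31. Neither B6 nor B6-TgYF had a peak there, and the nearest other gene, Kcnt1, was 12.1 kb away.

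Nanos3, an RNA-binding factor that protects early germ cells, had the one interval absent from B6 that both transgenic lists held. In B6-TgWT it was chr8:86703648-86705225, 1578 bp with a fold enrichment of 12.87 at a percentile of 73. In B6-TgYF it was chr8:86703712-86704888, 1177 bp with a fold enrichment of 5.04 at a percentile of 29.6. The interval lay 3.2 to 4.8 kb before the Nanos3 start, 0.8 kb from Mir181c, and a second B6-TgWT peak of 749 bp with a fold enrichment of 5.02 lay between it and the gene and touched the placed Mir181c. Mir181d was placed 2.2 kb before the Nanos3 start. The Nanos3 region held a peak in all lists at its other end, at the 3′ end of the gene, of 1790 bp in B6 (fold enrichment 4.29), 1151 bp in B6-TgWT (4.22) and 1573 bp in B6-TgYF (4.0). The B6 peak overlapped another gene, 4930432K21Rik, and the B6-TgYF peak lay 58 bp from it.

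Nanos2, the RNA-binding repressor of differentiation in stem cells, had no peak in its region in any list. The nearest peaks were 2497 bp away in B6 (chr7:19575411-19578307), 2502 bp in B6-TgWT and 2559 bp in B6-TgYF, and they overlapped the neighbouring gene Mypop. The depth of the lists is unknown, so a weak Nanos2 mark below the authors' cutoff cannot be told from none.

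**Figure D4:**
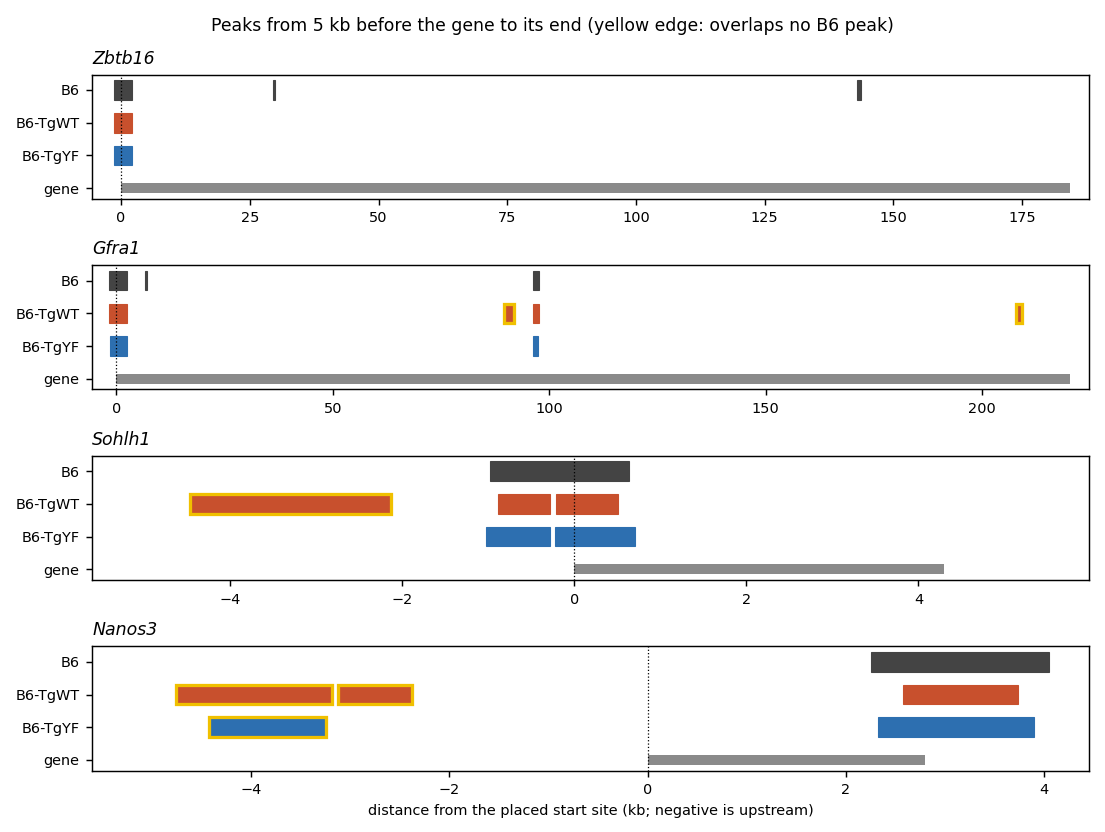
Peaks from 5 kb before the gene to its end in the 3 lists, for the members Zbtb16, Gfra1, Sohlh1 and Nanos3 only. Position is the distance from the start site, and peaks that touched no B6 peak are outlined in yellow. Outlines widen the thinnest bars and hide the gap in Zbtb16. Gfra1, Sohlh1 and Nanos3 hold the peaks absent from B6.

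Other spermatogonial genes served as a reference list, chosen with earlier results of these data known. Of 20 listed genes of undifferentiated spermatogonia 12 were placed, and of these 11 had a promoter peak in B6, 9 had one in B6-TgWT and 11 had one in B6-TgYF. Tspan8 had none in any list, and Nxf7 and Pou5f1 had none in B6-TgWT. Of 15 listed genes of differentiating cells 12 were placed, and all 12 had a promoter peak in every list. The median width was 3175, 3218 and 2777 bp in the first list and 2098, 1964 and 2078 bp in the second. The B6 widths ran from 6347 bp at Lhx1, 4373 bp at Foxo1 and 4360 bp at Dazl down to 933 bp at Pou5f1, 707 bp at Nxf7 and 232 bp at Dnmt3l. Lhx1 and Foxo1 are transcription factors of the stem cell pool, and Dazl encodes a germ-cell RNA-binding protein.

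Markers of other cells in the testis had promoter peaks too, so a peak at a member cannot be assigned to spermatogonia. Many listed markers were not placed, so the counts cover part of each list. A promoter peak in each list was found for all 8 meiotic genes placed of 10 listed, all 6 Sertoli cell genes placed of 12, both peritubular genes placed of 3, and 3 of the 4 Leydig cell genes placed of 7. Of 3 macrophage genes only Cd68 was placed, and it had none. Of 12 genes of other organs 6 were placed, and 1, Gfap, had a promoter peak in each list. Median widths of the Sertoli list were 5252 bp in B6, 4070 bp in B6-TgWT and 5458 bp in B6-TgYF. The part of these cells in the members' values was not tested.

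Each member was matched to the listed spermatogonial gene with the closest width and fold percentiles, as a distance over 6 values, among 21 genes with a promoter peak in every list. Sall4 was closest to Eomes at a distance of 5.73 percentile points, Id4 to Dnmt3a at 8.05, Sohlh2 to Crabp1 at 8.65 and Lin28a to Crabp1 at 8.85. Kit was closest to Uchl1 at 10.9, Gfra1 to T at 15.6 and Zbtb16 to Egr4 at 18.8. Sohlh1 had no near match, since the closest gene, Stra8, was at 40.9.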

How the data were processed

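H3K4me3 ChIP-seq of whole testis was deposited as 1 peak list per line, with no value per replicate. MACS2, BWA, Bowtie2 and CASAVA are listed, without roles or versions, with the build mm9, per the submitters' processing notes. How replicates were combined is not given in the sources used here. The lists had no header and were read in the usual MACS column order, judged from the values: the deposited score and −log10 p and −log10 q values, the fold enrichment (a ratio over background) and the summit are the authors' own. In the authors' deposited table of each line, −log10 p started at 11 (B6), 12 (B6-TgWT) and 11 (B6-TgYF).

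No mm9 gene table was used. GRCm38.p6 start sites from RefSeq were shifted by a constant offset per chromosome block, found without the members by segmenting each chromosome into blocks (316 by the B6 list) so that most start sites lay within 1 kb of a B6 peak. Segmentation replaced the planned offset over 10 Mb on either side of a gene, which spans several blocks. Blocks were fitted on chromosomes 1 to 17, 19 and X, so genes elsewhere are not among those placed. Of 26795 genes, 24214 (90.4%) that were placed alike, within 1 kb, with blocks fitted to B6 and to B6-TgYF were kept. Some short blocks took shifts far from those beside them in both fits. On chromosome 5, a block of 11 start sites, 10 of them near a peak, took −7131500 bp. The blocks beside it took 390000 and 392000 bp. Shares over all genes may thus include wrongly placed genes. Kit lay between blocks and took the offset of the left one, which the B6-TgYF blocks gave directly. The starts of Zbtb16 and Sall4 were put at their end of higher coordinate, from general knowledge of their strand. The block search was tested on simulated data, which checks the code and not the placement of these genes.

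Every member was named. Of the reference lists, genes without a promoter peak in some list, and those with the 3 widest and 3 narrowest B6 peaks, could be named. The members and lists were chosen with earlier results of these data known. The nearest peak within 1 kb of the start was the promoter peak. Width ratios under 0.8 or over 25% above 1, and percentile differences past 10 points were counted. Shares have Wilson 95% intervals, which cover counting error only. For peaks absent from B6, the share among peaks in the regions of protein-coding genes was added after the data were seen, and the planned share over all peaks is given as counts. Alternatives changed the placement, the distance, the region, joining of peaks and list length. The work used matplotlib 3.10.9, scipy 1.17.1, pandas 2.3.3 and numpy 2.4.6 under Python 3.11.15.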

Additional observations from a re-analysis of the deposited data

How the results depend on the processing

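No paired analysis was possible because both libraries of a line went into 1 list, and for the same reason no replicate could be left out. Across 17 results and 15 settings, 164 of 170 alternative values stayed close to the reported ones, meaning within 1.5 times for widths and counts, 25% above or 20% below for ratios and 10 points for percentiles. The other 6 moved. Ranked among genes with a promoter peak in all lists, the members' median fold percentile for B6, B6-TgWT and B6-TgYF was 30.2, 32.1 and 32.4; this alternative ranks promoter peaks only against other promoter peaks. With 2 kb in place of 5 kb before the gene, 2 member peaks of B6-TgWT were absent from B6, and for B6-TgYF 0 were, since the upstream peaks of Sohlh1 and Nanos3 fell outside. When absence required no B6 summit within 500 bp, B6-TgYF had 3.

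Placement sets the limits. Kit lost its promoter peak with the offset over 5 Mb on either side or with its right block, leaving 7 members. An offset over 10 Mb on either side also gave 8, but placed Kit and Nanos2 by other blocks, so these were not the same 8 peaks. The Kit start then lay more than 1 kb from the Kit peak reported above. The median widths became 2853 bp in B6, 2280 bp in B6-TgWT and 2326 bp in B6-TgYF. With the starts of Zbtb16 and Sall4 at the lower coordinate, 6 had a promoter peak. Joining peaks less than 1 kb apart raised the members' median width to 3214 bp in B6, 3073 bp in B6-TgWT and 3226 bp in B6-TgYF. The depth of the lists is unknown, and a missing peak says nothing on a mark below the cutoff.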

Other observations

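Some reference genes had promoter peak widths that differed between lists by more than those of most members. Stra8, the retinoic acid target of germ cells entering meiosis, had a peak of 2093 bp in B6, 1332 bp in B6-TgWT and 954 bp in B6-TgYF. Dhh, the hedgehog ligand of Sertoli cells, had 5684 bp in B6, 1740 bp in B6-TgWT and 5846 bp in B6-TgYF. Dnmt3l, the cofactor of de novo DNA methylation, had 232 bp in B6 against 875 and 858 bp in the transgenic lists. These 3 genes were chosen after their values were seen, and whether their peaks were split, like those of Zbtb16 and Sohlh1, was not tested.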
